A study of Mus musculus with 12 samples.

Results

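Cytosolic ribosomal protein genes encode the proteins of the large (Rpl) and small (Rps) subunits of the ribosome that translates nuclear mRNA. They were taken as the genes whose symbol is Rpl or Rps followed by a number and at most 1 of the letters a, l, x or y, together with Rplp0, Rplp1, Rplp2 and Rpsa. The rule used no measured value and found 83 of the 50559 genes in the count table. In mammals most of these genes are expressed in every cell, their mRNAs are short and abundant, and many begin with a run of pyrimidines (the TOP motif) through which mTOR signaling controls their translation. They have also left many processed copies in the genome, which are intronless sequences made by reverse transcription of mRNA.

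The libraries were prepared from retinas of wild-type C57BL6/J mice, collected on postnatal day 28. On day 1 the pups had received 30 µg of an isotype control antibody (IgG) or of APB5, a rat monoclonal antibody against mouse PDGFRβ, the receptor on which pericytes depend. In the IgG+Mino and APB5+Mino groups, minocycline, a tetracycline antibiotic that dampens microglial activation, was also given daily at 45 mg/kg from day 5 to day 27. Each group held 3 RNA-Seq libraries. The study counted mice as its samples, while the labels tie no library to an animal, so the p-values measure the spread between these libraries.

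Library totals ranged from 52740545 to 59411044 counts. All 10 retinal marker genes reached 1 CPM (counts scaled to library size) in every library. Summed lens markers were at 1922 CPM in IgG+Mino replicate 3, against 34.3 and 5.51 in replicates 1 and 2. In IgG they were at 719, 103 and 48.3 CPM in replicates 1, 2 and 3. Summed red blood cell markers were at 258 CPM in IgG replicate 3, against 53.4 and 68.4 in IgG replicates 1 and 2. The part of lens and blood in the members' levels was not tested. APB5 replicate 3 stood apart from the other APB5 libraries. Its summed gliosis markers were at 4783 CPM, against 518 and 526 in APB5 replicates 1 and 2, and its summed microglia and macrophage markers at 462 CPM, against 56.5 and 46.1. Its summed retinal markers were at 13557 CPM, against 54707 and 47045. For the main edgeR fits, members' medians and counts of called members that rest on the APB5 group are therefore given with and without this library. Alternative settings other than leaving out a library, and the called shares of length classes, include it. Xist, the RNA made from the inactive X chromosome of female cells, was at 815 to 1603 CPM in the IgG libraries and at 0.371 to 0.489 CPM in the IgG+Mino libraries. In APB5 and APB5+Mino it was high in replicate 3 alone (1254 and 2662 CPM) and at most 0.680 CPM in the others. Sex by this marker was thus unbalanced in every comparison but APB5+Mino against APB5, and in IgG+Mino against IgG it cannot be told apart from minocycline.

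The members' summed counts were between 0.480% and 0.967% of a library. In IgG the share was 0.824%, 0.766% and 0.874% in replicates 1, 2 and 3, with a mean of 0.821% ± 0.0541 (SD, n = 3). In IgG+Mino it was 0.808%, 0.583% and 0.640%, with a mean of 0.677% ± 0.117 (SD, n = 3). The APB5 libraries had 0.786%, 0.695% and 0.967%, with a mean of 0.816% ± 0.138 (SD, n = 3). The APB5+Mino libraries had 0.591%, 0.480% and 0.524%, with a mean of 0.532% ± 0.0562 (SD, n = 3). All APB5+Mino libraries were below all IgG and all APB5 libraries, while IgG+Mino replicate 2 lay within the APB5+Mino range. The IgG and APB5 groups overlapped. In bulk tissue, fewer cells rich in these transcripts and less of them per cell cannot be told apart.

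**Figure D1:**
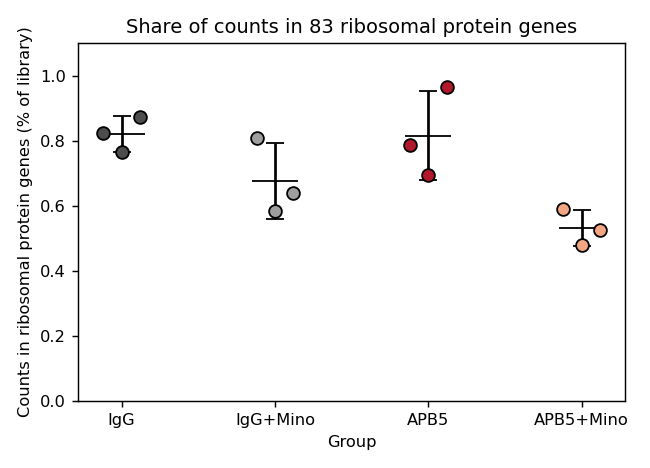
Percent of each library's counts (y axis, starting at 0) that fell in the 83 ribosomal protein genes, by group (x axis). Points are libraries, dashes are group means and bars are SD (n = 3); the 3 APB5+Mino points, from 0.480% to 0.591%, lie below every IgG and APB5 point.

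Levels within the family differed widely when read per length (RPKM, CPM per kilobase of the shortest transcript with the whole coding sequence). The highest means over the 12 libraries belonged to Rps15 (499 RPKM), the stalk gene Rplp1 (499 RPKM), Rpl41 (427 RPKM), Rpl8 (332 RPKM), Rps14 (325 RPKM), Rpl13a (304 RPKM), Rpl26 (276 RPKM) and Rps3 (265 RPKM). Other members were counted at a few RPKM or less. Rps6, the small subunit protein phosphorylated downstream of mTOR, had 6.17 RPKM, Rps29 1.65 RPKM and Rps13 0.665 RPKM. With the 7 members whose symbol ends in l set aside, of which GENCODE annotates Rpl6l and Rpl32l as processed pseudogenes, the highest mean of the other 76 members was 751-fold the lowest.

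Much of the members' mature sequence also stands elsewhere in the genome. The reads were single and 50 bases long. Of all 50-base windows of a member's transcript, a median of 45.4% had an exact copy outside the gene, against 0.865% in 78 mitochondrial ribosomal protein genes and 0.911% in 75 nuclear respiratory chain genes. The windows below show what such a read holds. Each spans a join between 2 exons within the coding sequence, with the bases after the join in capitals, and each occurs without a gap in the named processed copy on GRCm39.
Rps6, exons 2 and 3 (chr4, minus strand, 86774965 to 86774989 and 86774569 to 86774593), also in Rps6-ps4 (chr2:75022004-75022053, minus strand): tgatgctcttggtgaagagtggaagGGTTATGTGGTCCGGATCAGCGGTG
Rps13, exons 2 and 3 (chr7, minus strand, 115933135 to 115933159 and 115932985 to 115933009), also in Rps13-ps2 (chr7:88180010-88180059, minus strand): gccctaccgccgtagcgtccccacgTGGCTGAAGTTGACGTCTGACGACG
Rps29, exons 1 and 2 (chr12, minus strand, 69205771 to 69205795 and 69205510 to 69205534), also in Gm14303 (chr2:172351525-172351574, minus strand): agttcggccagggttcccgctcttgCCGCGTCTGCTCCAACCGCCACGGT
Rps16, exons 1 and 2 (chr7, plus strand, 28050252 to 28050276 and 28050417 to 28050441), also in Rps16-ps2 (chr5:129205509-129205558, minus strand): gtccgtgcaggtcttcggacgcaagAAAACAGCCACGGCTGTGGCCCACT

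In the count table, these copies held most of the family's counts for several members. Rps6 had 3781 counts in the 12 libraries together and Rps6-ps4 had 181705. Rps13 had 264 counts against 61466 in Rps13-ps2, Rps29 had 557 against 112886 in Gm14303, and Rps16 had 1844 against 95352 in Rps16-ps2. In all, 388 annotated pseudogenes sharing at least 10% of a member's windows held 3221135 counts, beside 4813973 in the members. Under 50% of the summed counts lay in the gene itself for 28 of the 76 members. Each copy's counts were then added to the member of whose windows it held the largest percent. This put 4 copies that share more windows in number with Rpl6 under Rpl6l, among them Gm6136 with 55658 counts, so that Rpl6 was not raised by them. With these counts added, Rps6 stood at 309 RPKM and Rps13 at 156 RPKM, and the SD of log2 RPKM over the 76 members went from 2.48 to 1.55. How reads that match a gene and its copy equally well were assigned is not stated in the sources used here, so levels of single members, and their order, are uncertain. The ratio of copy counts to member counts was between 0.648 and 0.688 in every library.

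**Figure D2:**
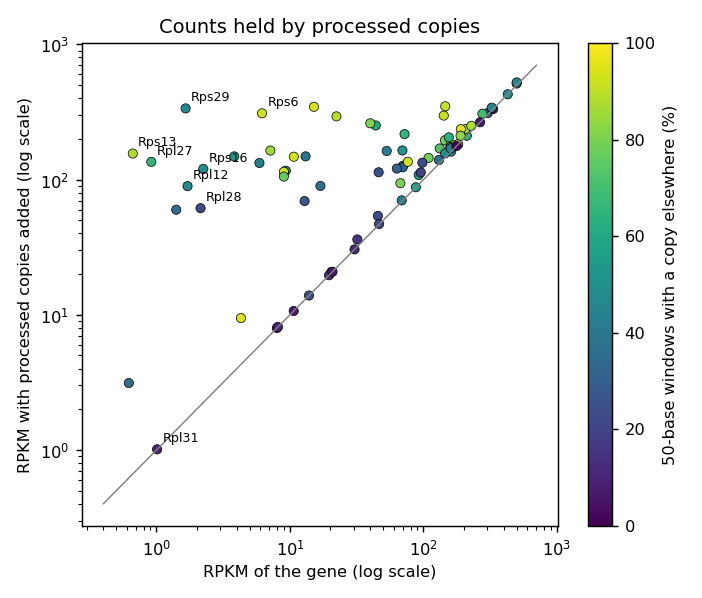
Mean RPKM over the 12 libraries of each member above 0.5 RPKM (x axis, log scale) and the same with the counts of its processed copies added (y axis, log scale). Color gives the percent of 50-base windows with an exact copy elsewhere in GRCm39, the line marks equal values, and Rps13, Rps29, Rpl27, Rps16, Rpl12 and Rps6 lie far above it.

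Rpl3l, the form of Rpl3 found mainly in muscle, had 3 to 17 counts per library, and Rpl39l, a testis form of Rpl39, had 0 to 7. Rpl10l, the testis form of the X-linked Rpl10, had 1 count in all libraries together. A count of 0 in a library is compatible with up to 3 counts, by counting error alone. The 2 testis forms failed the filter on low counts in every comparison and Rpl3l failed it in APB5 against IgG and in IgG+Mino against IgG, which left 80 or 81 members for testing. Their partners were well covered, with a mean of 192 CPM for Rpl3 and 37.0 CPM for Rpl39, while Rpl10 had 3.43 CPM.

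APB5 against IgG asks what early PDGFRβ blockade left in the retina at 4 weeks. No member was called in either direction by edgeR's quasi-likelihood test (adjusted p of at most 0.05 over all 20350 genes tested, of which 0% were called). The smallest adjusted p among members was 0.664, 0 members had an unadjusted p under 0.05, and DESeq2 also called 0. The 80 members had a median of -0.053 on the log2 scale (all genes -0.0024), with 53 below 0 (66.2% of them, against 50.4% of all genes). Rps15 was at 349, 319 and 362 CPM in IgG and at 289, 267 and 279 CPM in APB5, so that its groups did not overlap (log2 fold change -0.29 ± 0.13, SE). In 4 members every APB5 library was below every IgG library, which is 5% of the 80 against 7.89% of all genes. Among members with values above 0, Rpl10 had 2.92, 3.10 and 3.28 CPM in IgG and 5.04, 2.78 and 6.86 CPM in APB5, and its groups overlapped. The median went to -0.14 without APB5 replicate 3 (0 members called), to 0.057 without APB5 replicate 2 and to 0.012 without IgG replicate 3. The sign of the difference thus rests on single libraries. With Xist as a covariate over all 12 libraries it was -0.0046, with 41 of 81 members below 0.

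APB5+Mino against APB5 asks what minocycline changed in retinas with blocked PDGFRβ. Here 79 of 81 members were lower in APB5+Mino, against 51.5% of all genes, and their median was -0.54 on the log2 scale (0.687-fold), beside -0.020 over all 20281 genes tested. The test called 11 members lower (13.6% of the 81) and none higher, while of all genes 2.03% were called lower and 2.79% higher. No member passed the study's further criterion of a log2 fold change of at least 1, by which 0.819% of all genes were lower and 0.838% higher. At an unadjusted p under 0.05, 56 members were lower and 1 was higher, against 35.9% of all genes in either direction. In 54 members every APB5+Mino library was below every APB5 library, which held for 22.8% of all genes.

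The 11 were called by a narrow margin, with edgeR adjusted p-values from 0.0461 to 0.0493. Rpl37a (GRCm39 chr1:72750364-72756093), a zinc-binding protein of the large subunit, was at 46.0, 41.8 and 54.6 CPM in APB5 and at 29.5, 21.8 and 24.7 CPM in APB5+Mino. All APB5+Mino libraries were below all APB5 libraries, with -0.92 ± 0.16 on the log2 scale (SE, adjusted p = 0.0461 by edgeR). Rps26 (chr10:128460395-128462636), which lies near the mRNA exit channel of the small subunit, went from 109.6, 93.8 and 129 CPM to 71.4, 58.7 and 63.5 CPM (log2 fold change -0.80 ± 0.15, SE, adjusted p = 0.0461 by edgeR). Rpl26 (chr11:68792344-68797822), a large subunit protein that also binds p53 mRNA, went from 173, 150.4 and 177 CPM to 122, 104 and 108 CPM (log2 fold change -0.60 ± 0.12, SE, adjusted p = 0.0471 by edgeR). Rpl41 (chr10:128383979-128387628), which encodes the smallest ribosomal protein, fell from 267, 239.9 and 372 CPM to 175, 134 and 151 CPM (log2 fold change -0.95 ± 0.20, SE). The other 7 called members were Rps10, Rps25, Rpl36, Rpl35a, Rpl27a, Rps21 and Rps3, with log2 fold changes from -0.88 to -0.49. The groups of all 11 were apart. The largest drop was that of Rpl23a, a protein at the exit of the ribosomal tunnel, which was not called (-1.32 ± 0.40, SE, adjusted p = 0.0729 by edgeR) and is named here after its values were seen. Without APB5 replicate 3 Rpl23a was called lower.

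The calls depended on the libraries and the fit, while the size of the shift changed less. Replicate numbers were taken to pair the libraries in this comparison, though the labels do not say what a number marks. With the replicate number as a block no member and no gene of the table was called. The smallest adjusted p among members was then 0.0641 by edgeR, with a median of -0.54. Without APB5 replicate 3, 48 members were called lower (13.4% of all genes), with a median of -0.45, and without APB5 replicate 2, 51 were (10.5% of all genes), with a median of -0.67. Leaving out APB5 replicate 1 or any APB5+Mino library left 0, with medians of -0.54 and from -0.61 to -0.50.

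**Figure D3:**
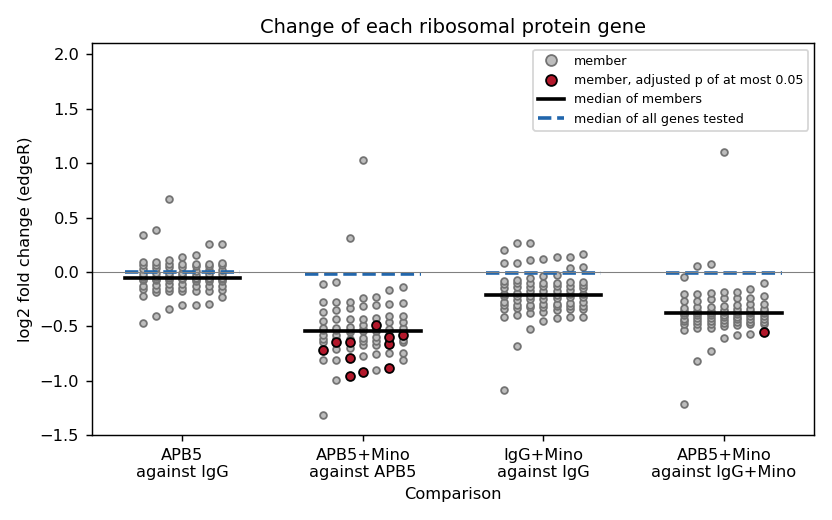
log2 fold change (y axis) of each tested member in the 4 comparisons of 2 groups (x axis), from edgeR. Gray points are members, red points members with an adjusted p of at most 0.05, black bars the median of members and blue dashes that of all genes tested; in APB5+Mino against APB5 the median is -0.54, 11 points are red and 2 lie above 0.

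Among the members with roles outside the subunit cores, the stalk genes Rplp0, Rplp1 and Rplp2, which recruit translation factors, had log2 fold changes of -0.70 ± 0.21, -0.61 ± 0.15 and -0.77 ± 0.17 (SE), with groups apart and adjusted p-values of 0.0732, 0.0528 and 0.0501 by edgeR. Rpsa, the laminin receptor precursor, had -0.53 ± 0.15 (SE, adjusted p = 0.0646 by edgeR). Rpl5 and Rpl11, which bind Mdm2 when ribosome assembly is disturbed, had -0.28 ± 0.13 and -0.53 ± 0.21 (SE), and in both the groups overlapped. Rps6 had 5.89, 5.06 and 8.61 CPM in APB5 and 4.03, 4.36 and 5.17 CPM in APB5+Mino, and its groups overlapped too. Without APB5 replicate 3 the stalk genes and Rpsa were called lower, while Rpl5, Rpl11 and Rps6 were not called. By subunit, 47 of 49 large subunit and 32 of 32 small subunit members were below 0, with medians of -0.55 and -0.54, and 6 and 5 of them were called. These medians were -0.45 and -0.49 without APB5 replicate 3, with 29 and 19 called lower.

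Of the paralog pairs, Rps4x on the X chromosome and Rps4l had log2 fold changes of -0.68 ± 0.16 and -0.55 ± 0.13 (SE). Rps27l, a p53 target, had -0.81 ± 0.25 and Rps27 -0.37 ± 0.14 (SE). Rpl39 had -0.81 ± 0.18 (SE, adjusted p = 0.0502 by edgeR), and Rpl3 had -0.30 ± 0.14 (SE). None of these was called with all libraries. Without APB5 replicate 3, Rps4x, Rps4l, Rps27l and Rpl39 were called lower, while Rps27 and Rpl3 were not called. The 2 members above 0 were Rpl3l and Rpl10a. Rpl3l rested on 4 to 8 counts per APB5 library and 10 to 17 per APB5+Mino library (adjusted p = 0.102 by edgeR). Rpl10a, a large subunit protein at the L1 stalk, was at 53.8, 46.6 and 23.0 CPM in APB5 and at 56.3, 49.9 and 48.1 CPM in APB5+Mino. Its log2 fold change of 0.31 ± 0.28 (SE) was 0.031 without APB5 replicate 3, and -0.21 with the counts of its processed copies added.

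The members' promoters were looked at because the members moved together. RefSeq promoters (GRCm38.p6, 250 bases before to 50 after a start) matched 61 of the 83 members. A run of at least 8 C or T touching the 20 bases on either side of a start was present in 54.1% of these members, in 26.1% of mitochondrial ribosomal protein genes, in 18.5% of respiratory chain genes and in 23.9% of all genes with a promoter. CCGGAAG, the core bound by ETS factors such as GABP, was found on either strand in 41.0% of the members and in 9.93% of all genes, but also in 37.7% of mitochondrial ribosomal protein and 23.1% of respiratory chain genes. GGGCGG was found in 59.0% of the members, in 49.3% and 38.5% of these lists and in 38.2% of all genes. AAGATGG, the YY1 core, was found in 14.8% of the members, in 18.8% and 16.9% of these lists and in 7.28% of all genes. TATAAA and CCAAT were less frequent in the members than in all genes. TATAAA was found in 11.5% of the members, in 7.25% and 12.3% of these lists and in 15.7% of all genes. CCAAT was found in 31.1% of the members, in 39.1% and 43.1% of these lists and in 41.1% of all genes. The following 80 bases (60 before the start, 20 from it on) belong to the 5 members with the smallest p in APB5+Mino against APB5 that have 1 promoter in the table, with the longest C or T run near the start in capitals.
Rpl37a (chr1:72711200-72711279, plus strand): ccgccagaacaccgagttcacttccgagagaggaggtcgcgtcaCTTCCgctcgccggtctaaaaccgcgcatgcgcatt
Rps26 (chr10:128626487-128626566, minus strand): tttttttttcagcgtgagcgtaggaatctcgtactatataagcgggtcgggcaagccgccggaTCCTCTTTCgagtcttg
Rpl26 (chr11:68901506-68901585, plus strand): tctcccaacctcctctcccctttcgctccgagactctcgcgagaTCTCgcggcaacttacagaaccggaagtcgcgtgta
Rps10 (chr17:27635225-27635304, minus strand): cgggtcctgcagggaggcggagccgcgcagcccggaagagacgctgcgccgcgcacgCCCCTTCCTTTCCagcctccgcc
Rps25 (chr9:44407654-44407733, plus strand): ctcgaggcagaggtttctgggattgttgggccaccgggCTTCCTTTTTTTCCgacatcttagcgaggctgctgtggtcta
The runs were 5, 9, 4, 13 and 14 bases long, so that 3 of the 5 called members shown carry a run of at least 8. A match of letters is a description and does not show binding or a transcription start.

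Other genes of the translation machinery were read from lists. Ribosomal proteins whose symbols fall outside the rule had a median of -0.63, with 6 of 7 below 0, and Rpl22l1, a paralog of Rpl22, was called at -0.78 ± 0.14 (SE). Another list held 19 genes taken to have a TOP start, which was not checked here. Most are translation factors, but Npm1, Nap1l1, Hnrnpa1, Tpt1, Naca and Btf3 are not. Of the 19, 18 were below 0 with a median of -0.30. Eef1b2, a subunit of the factor that recharges eEF1A, was called at -0.84 ± 0.18 (SE). The 30 ribosome assembly factors had a median of 0.061, with Rrp12 called higher (0.68 ± 0.14, SE). The 11 tested genes of RNA polymerase I transcription had a median of 0.15, with Polr1b, the second largest subunit, called higher (0.70 ± 0.14, SE). Of 19 genes of mTOR and Myc control, 14 were above 0 with a median of 0.30, and Rptor, the mTORC1 scaffold (0.96 ± 0.13, SE), Tsc1, which restrains mTORC1 (1.02 ± 0.19, SE), and Rps6kb2, a kinase of Rps6 (0.43 ± 0.087, SE), were called higher. None of these calls held with the replicate block. Of all genes tested, 2.03% were called lower and 2.79% higher. Genes outside the members at 32 CPM or more and over 4000 bases had a median of 0.24. Whether the list genes differ from other genes of their length was not tested. Without APB5 replicate 3 the medians of these 5 lists, in the same order, were -0.51, -0.29, 0.023, 0.037 and 0.28. In that setting 5 of the ribosomal proteins outside the rule and 7 of the 19 genes listed for a TOP start were called lower. Called higher were 4 assembly factors, 3 polymerase I genes and 8 genes of mTOR and Myc control. In the last 3 lists, 1, 1 and 3 genes were also called lower. Of all 20621 genes tested in that setting, 2754 were called lower and 2730 higher.

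The same direction was found among short, highly expressed genes outside the members. The length classes kept processed copies of members and ribosomal proteins outside the rule, and were not computed without them. The 267 tested processed copies alone had a median of -0.49 in APB5+Mino against APB5, with 241 below 0. Of other genes at 32 CPM or more, the 55 with a canonical transcript of at most 500 bases had a median of -0.52 on the log2 scale in APB5+Mino against APB5, with 96.4% below 0, and the 160 from 500 to 1000 bases had -0.49. The 3209 over 4000 bases had 0.24. These medians were -0.43, -0.42 and 0.16 without APB5 replicate 3. With all libraries, 16.4% of the 55, 10% of the 160 and 0.779% of the 3209 were called lower, beside 13.6% of the members. The 76 nuclear respiratory chain genes, also mostly short, had a median of -0.56 with 76 of 76 below 0 and 8 called lower, while 78 mitochondrial ribosomal protein genes had -0.25 with 64 below 0 and 1 called lower. Without APB5 replicate 3 the respiratory chain median was -0.48 with 53 called lower, and the mitochondrial ribosomal median was -0.20 with 16 called lower. With offsets for GC content and transcript length, the members' median was -0.37 (all genes 0.026), 77 of 81 were below 0 and none was called, with a smallest adjusted p of 0.0504. Summed microglia and macrophage markers moved in the same direction, from 46.1 to 462 CPM in APB5 to 14.5 to 17.5 CPM in APB5+Mino, as did gliosis markers, from 518 to 4783 CPM to 227 to 257 CPM, and pigment epithelium markers, from 103.7 to 747 CPM to 39.7 to 67.6 CPM. Without APB5 replicate 3, 9 of 10 microglia and macrophage, 7 of 8 gliosis and 4 of 6 pigment epithelium markers were called lower. The share of counts from mitochondrially encoded genes was higher in APB5+Mino (6.05% to 6.63%) than in APB5 (4.19% to 5.96%), with no overlap. The part of transcript length, of these cell types and of the mitochondrial share in the members' shift was not tested.

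**Figure D4:**
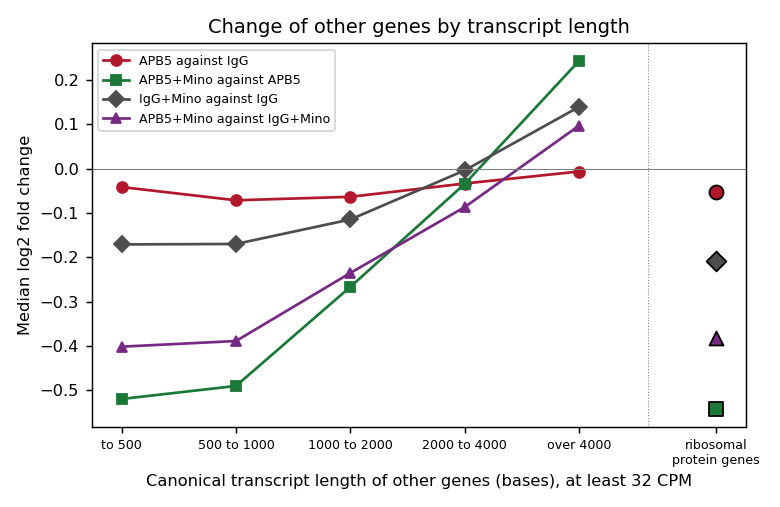
Median log2 fold change (y axis) of genes outside the members at 32 CPM or more, by canonical transcript length in bases (x axis, 5 classes), for the 4 comparisons of 2 groups. The members' medians are at the right, and the classes include processed copies of members. In APB5+Mino against APB5 the medians go from -0.52 in the shortest class to 0.24 in the longest, beside -0.54 for the ribosomal protein genes.

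IgG+Mino against IgG asks the same of minocycline without PDGFRβ blockade. The members had a median of -0.21 on the log2 scale (all genes -0.010), with 68 of 80 below 0, against 51.4% of all genes. By edgeR and DESeq2 0 members were called, at any fold or at a log2 fold change of at least 1, and edgeR called 0.00993% of all genes lower and 0.0199% higher by either criterion. The smallest adjusted p among members was 0.585, and 14 of 80 had an unadjusted p under 0.05, all lower, against 8.37% of all genes in either direction. Rpl35a was at 86.7, 72.5 and 77.5 CPM in IgG and at 67.9, 51.9 and 56.7 CPM in IgG+Mino (log2 fold change -0.42 ± 0.14, SE). Rpl41 had -0.34 ± 0.13 and Rps16 -0.68 ± 0.22 (SE), the last at 1.93 to 4.28 CPM over both groups. In these 3 genes the groups did not overlap, which held for 9 members in all, or 11.2% of the 80 against 7.35% of all genes. The median was -0.36 without IgG+Mino replicate 1, whose share was the highest of its group, and -0.11 without IgG+Mino replicate 2. With offsets for GC content and transcript length it was -0.12 with 59 below 0, and with Xist as a covariate over all 12 libraries it was also -0.12, with 62 of 81 below 0. Among other genes at 32 CPM or more, processed copies included, those of at most 500 bases had a median of -0.17 here and those over 4000 bases 0.14.

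APB5+Mino against IgG+Mino compares the antibodies in treated mice. Here 78 of 81 members were lower in APB5+Mino, against 51.1% of all genes, with a median of -0.38 on the log2 scale (all genes -0.0092). Only Rpl41 was called by edgeR, while 3.28% of all genes were called lower and 4.8% higher. It went from 260.3, 199 and 217 CPM in IgG+Mino to 175, 134 and 151 CPM, and all APB5+Mino libraries were below all IgG+Mino libraries (log2 fold change -0.56 ± 0.13, SE, adjusted p = 0.0391 by edgeR). At a log2 fold change of at least 1 no member was called, against 0.349% of all genes lower and 0.878% higher. The median was -0.37 without APB5+Mino replicate 3, the Xist-positive library of this comparison. Without IgG+Mino replicate 3 or any 1 of the APB5+Mino libraries no member was called, without IgG+Mino replicate 1 there were 8 (7.18% of all genes, with a median of -0.25), and without IgG+Mino replicate 2 there were 24 (3.67% of all genes). Rpl23a had the largest drop among members here too, from 14.3, 6.96 and 7.79 CPM to 2.67, 5.56 and 4.25 CPM (log2 fold change -1.22 ± 0.33, SE, adjusted p = 0.0526 by edgeR). With its processed copies added, which hold 126484 counts beside 5753 in the gene, its log2 fold change was -0.51 (adjusted p = 0.0399 by edgeR). At an unadjusted p under 0.05, 55 members were lower and 1 was higher, against 29.3% of all genes in either direction, and in 46 the groups did not overlap with APB5+Mino lower, against 17.6% of all genes. Among other genes at 32 CPM or more, processed copies included, those of at most 500 bases had a median of -0.40 and those over 4000 bases 0.097. Of them, 12.7% and 1.71% were called lower, as were 14.4% of those from 500 to 1000 bases, beside 1.23% of the members. The 3 members above 0 were Rpl3l, Rpl10 and Rps13.

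The interaction of antibody and minocycline, tested over all 12 libraries, asks whether the change with minocycline differed between APB5 and IgG retinas. The median coefficient of the 81 members was -0.35 (all genes -0.024), with 76 below 0, against 51.9% of all genes, and 0 were called by edgeR or DESeq2. Without APB5 replicate 3 the median was -0.25, and without IgG+Mino replicate 1 it was -0.19 with 68 below 0, with 0 called in both. The smallest adjusted p was 0.239, for Rps26 (-0.55 ± 0.22, SE), and 0.0141% of all genes were called below 0. At an unadjusted p under 0.05 there were 7 members, all below 0, a smaller share of the 81 than the 17.1% found among all genes in either direction. A difference in the minocycline effect between the antibodies was therefore not detected for any single member. The comparisons above share libraries and are not independent of one another.

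Members rose and fell together from library to library. For the 61 members of at least 10 CPM, the correlation of a member's log2 CPM with the mean of the others over the 12 libraries had a median of 0.96, and it exceeded 0.8 in 52. All libraries share the same scaling, so that these values are a description. The highest was that of Rpl24 (0.99), and the lowest were those of Rpl10a (-0.113) and Rps15a (0.056). Rps15a also had the smallest SD of log2 CPM of the 61, followed by Rpl22 and Rpl4, while Rpl37a, Rpl41 and Rpl13 had the largest. Rps15a was between 97.7 and 123 CPM in every library, and its groups overlapped in APB5+Mino against APB5. The genes outside the family most like its mean were Gm9843, Cox4i1, Uqcrq, Gm14303 and Hint1, with correlations of 0.993 to 0.995 among 10612 candidates. Of these, Gm14303 is the processed copy of Rps29 shown above, and Cox4i1 and Uqcrq are subunits of the respiratory chain.

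**Figure D5:**
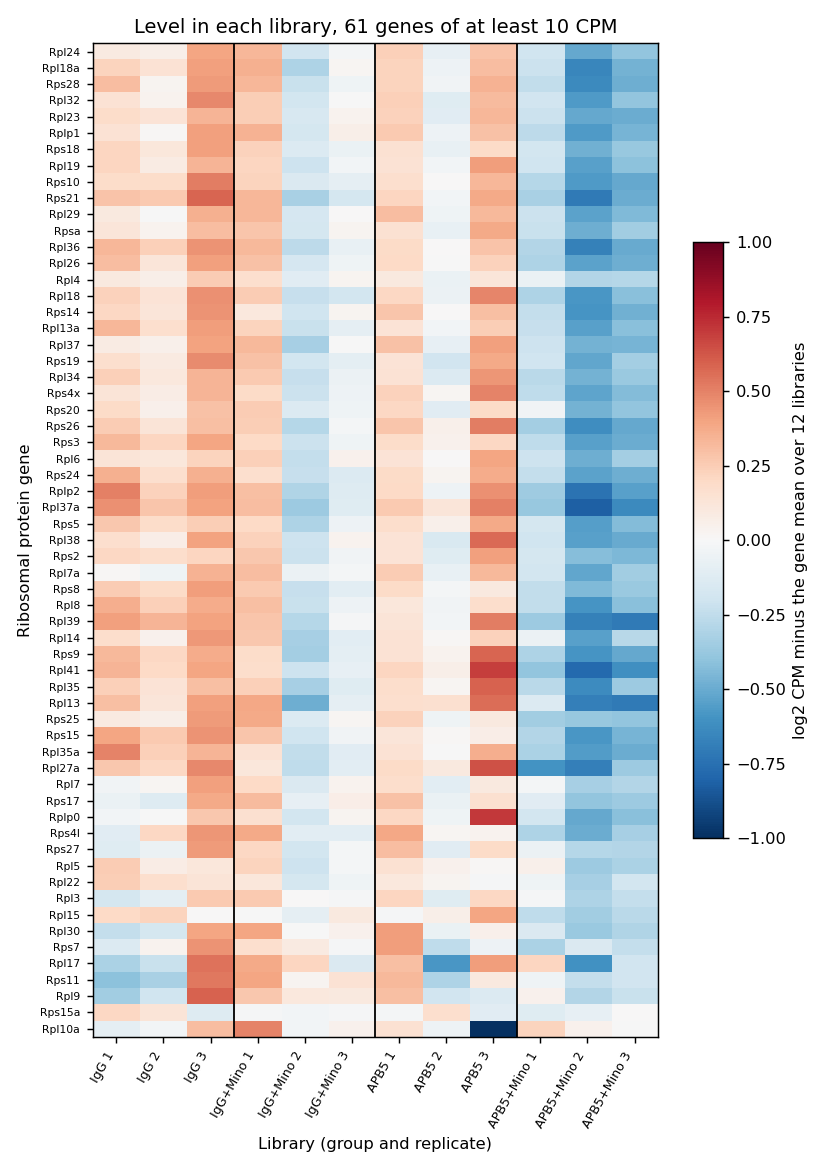
Deviation of log2 CPM from each gene's mean over the 12 libraries (color, from -1 in blue to 1 in red) for the 61 members of at least 10 CPM (rows, ordered by their correlation with the other members) in each library (columns, by group and replicate). APB5+Mino replicates 2 and 3 are blue in nearly all rows, IgG replicate 3 and APB5 replicate 3 mostly red, and Rpl10a and Rps15a at the bottom do not follow the others.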

How the data were processed

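The study's authors made strand-specific poly-A libraries from retinal RNA, sequenced them as single reads of 50 cycles (bcl2fastq 2.20 per the submitters' processing notes) with alignment to mm39 and an NCBI annotation by the DRAGEN RNA pipeline. The deposited gene table holds raw counts of reads per gene. Whether counting used the strand, and how reads with several matches were handled, is not given in the sources used here. Another deposited count table repeats these counts and was not used, and neither were 6 tables of the authors' own fold changes and p-values. Repeated columns (3) were identical to those they repeat.

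Counts were analysed in R 4.3.3 with edgeR 4.0.16 (filterByExpr, TMM scaling, prior count 2, quasi-likelihood test without robust estimation, two-sided, Benjamini-Hochberg adjustment over all genes tested). Only the 2 groups compared entered a fit, apart from the interaction, which used all 12 libraries. Calls required an adjusted p of at most 0.05, and the study's further criterion of a log2 fold change of at least 1 was applied beside it. The fit was tested on simulated data with the same variability for every gene, changes larger than any of the members' and no library that stands apart. That test therefore does not cover the conditions met here. CPM and RPKM were computed here from the deposited counts. Lengths, coordinates and copies came from GENCODE vM39 on GRCm39, the assembly of mm39. RPKM used the shortest transcript with the whole coding sequence, since the canonical transcripts of several members carry long 3′ ends. Rpl31 and Rpl37a have long models by either choice, which lowers their RPKM.

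Members and lists were chosen with earlier results of these data known. Named are the 8 members with the highest RPKM, up to 3 per direction with the smallest p in each comparison, 5 paralog pairs, members that failed the filter, the 3 largest and 3 smallest SDs, the stalk genes, Rps6, Rpsa, Rpl5 and Rpl11, and the 5 most similar other genes. Rpl23a and the other 7 members called in APB5+Mino against APB5, the members named for their processed copies, and the list genes named were chosen after their values were seen.

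Libraries of different groups share replicate numbers. Deviations from the group means correlated by 0.134, 0.182 and 0.140 in the same-numbered pairs of APB5+Mino and APB5, and by -0.157 to 0.019 in the others. The numbers were therefore taken to pair these libraries, though the correlations are weak and the labels name no pairs. Deviations within a group cancel out, so these correlations are not independent of one another. In each other comparison at least 1 same-numbered pair was under 0.1. Alternatives were RLE scaling, library size only, DESeq2 1.42.0, no filter, a replicate block, offsets for GC content and transcript length, log2 CPM of Xist as a covariate, all 12 libraries in a fit, each library left out, and, for the share of counts, the effective library size and only members with no -ps symbol. Adding processed copies to each member, offsets from the shortest transcripts, and gene lists without APB5 replicate 3 were chosen after seeing the data. Pairs of libraries within a group differed by more than sampling noise.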

Additional observations from a re-analysis of the deposited data

How the results depend on the processing

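For APB5+Mino against APB5, the 11 members called lower became 50 with DESeq2, 51 with Xist as a covariate and 48 with all 12 libraries, while the share of all genes called lower went from 2.03% to 13.3%, 14.1% and 12.04%, and 0 with library size only, with the replicate block, with GC content and length offsets from either transcript model, and with these offsets and the block together. By the criterion of a log2 fold change of at least 1, 0 members became 2 with DESeq2 and 1 with all 12 libraries. Leaving out a library gave 0 to 51 members called lower and 0 to 3 by the fold criterion. For APB5+Mino against IgG+Mino, the 1 called became 41 with DESeq2, 30 without a filter, 54 with the replicate block, 52 with the block and offsets, 16 with offsets, 17 with offsets from the shortest transcripts and 7 with processed copies added, beside 8.36%, 3.05%, 9.75%, 11.6%, 7.91%, 7.81% and 4.45% of all genes, and 0 with Xist as a covariate or all 12 libraries. By the fold criterion 1 was called with DESeq2, without a filter and with either offsets, and leaving out a library gave 0 to 24 lower and 0 to 1 by fold. Same-numbered pairs of APB5+Mino and IgG+Mino correlated by 0.200, 0.104 and -0.024 and were not taken as pairs, so the block is no paired test there. The block changed no count of called members in the other 3 comparisons. Why the counts moved was not tested. Only APB5 against IgG changed the sign of its median, from -0.14 to 0.057 over the libraries left out. In the other comparisons every alternative kept the median below 0.

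The mean share of counts was 0.249% in IgG, 0.199% in IgG+Mino, 0.245% in APB5 and 0.155% in APB5+Mino over the 20 members with no -ps symbol, and 1.36%, 1.14%, 1.36% and 0.892% with processed copies added. Named members changed sign as follows, none of them called. With copies added, Rpl10a went to -0.21 in APB5+Mino against APB5 and -0.18 in the interaction, Rps29 to -0.19 and Rpl30 to -0.086 in IgG+Mino against IgG, and Rps13 to -0.42 in APB5+Mino against IgG+Mino and -0.45 in the interaction. In APB5+Mino against IgG+Mino, Rps13 was -0.085 with the replicate block and Rpl10 -0.12 with Xist as a covariate. With a library left out, Rpl30 ranged from -0.011 to 0.36 in IgG+Mino against IgG, Rpl10 from -0.27 to 0.50 and Rps13 from -0.86 to 0.37 in APB5+Mino against IgG+Mino, and Rpl10a from -0.094 to 0.45 and Rps13 from -0.44 to 0.79 in the interaction. Members under 5 CPM, among them Rps13 and Rpl10, are limited by depth.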
